A study of Mus musculus with 12 samples.

Results

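The colon of mice without ATF6a (ATF6aKO, a knockout of Atf6) was compared directly with the colon of mice without ATF6b (ATF6bKO, a knockout of Atf6b), with no wild-type array in any fit. All samples titled as knockouts were taken, which gave 8 of the series' 12 samples, 4 from ATF6aKO and 4 from ATF6bKO. The groups were ATF6aKO untreated (UT), ATF6aKO given dextran sulfate sodium (DSS), ATF6bKO UT and ATF6bKO DSS, with 2 arrays each. DSS is a sulfated polysaccharide that injures the colonic epithelium, and it was given at 3% in the drinking water for 3 days. All groups were male, of the strain C57BL/6J, and whole colon RNA was measured; how the alleles were made is not given in the labels, and neither are the ages. No label states that a group's arrays hold RNA of different mice, so p-values cover the spread among these arrays alone, and part of it may be technical. The contrast asks where loss of one ATF6 protein leaves the colon different from loss of the other. A higher level in ATF6aKO than in ATF6bKO can come from either genotype, since no other genotype enters the contrast.

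ATF6a and ATF6b are related transcription factors that are made as membrane proteins of the endoplasmic reticulum (ER), the compartment where secreted proteins fold. When unfolded proteins accumulate there, both move to the Golgi apparatus and are cut by proteases, and the released part enters the nucleus and binds ER stress elements together with the factor NF-Y. In mouse cells ATF6a is known as the stronger activator of ER chaperone genes. Another branch of the unfolded protein response, led by the kinase PERK, raises translation of the transcription factor ATF4, whose targets serve amino acid uptake, serine synthesis and glutathione turnover. The colon is rich in secretory cells, such as goblet and enteroendocrine cells, whose folding load is high.

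A level is the log2 of a probe's background-subtracted signal minus the log2 of that array's 75th percentile, so a level of 0 lies at the 75th percentile. A gene is read by its brightest probe, levels are not set against each other between genes, and a difference is ATF6aKO minus ATF6bKO in log2 units. The ATF6aKO arrays lay on one slide and the ATF6bKO arrays on another, so slide and genotype cannot be told apart in any result given here. The 75th percentile of the signal was 450.3 to 621 on the ATF6aKO arrays, against 246 to 391 on the ATF6bKO arrays. The local background was 23 to 24 on the ATF6aKO arrays, against 27 to 29 on the ATF6bKO arrays, and 67.8% to 70.8% of probes were well above background, against 66.0% to 71.1%. The 10 spike-in controls, RNAs added in fixed amounts, had level differences of -0.37 to 0.20. Arrays of the same group correlated at r = 0.984 to 0.992 over genes. Markers of colon epithelium were present on all 8 arrays: Aqp8, a water channel of colonocytes, had levels of 6.4 to 7.64 on the ATF6aKO arrays and 6.08 to 7.40 on the ATF6bKO arrays. Genes of squamous epithelium were raised as a group on both ATF6bKO DSS arrays, and the keratins Krt5 and Krt6a were highest on replicate 2. The keratin Krt13 was not raised there, at 0.66 and 0.99 in ATF6bKO DSS against 1.45 to 1.92 on the ATF6aKO arrays. The mean level of the measured squamous genes was -2.49 and 1.62 on the ATF6bKO DSS arrays, against -4.91 to -4.42 on the other arrays. Krt5, a keratin of basal squamous cells, had levels of -4.76 to -4.10 on the 4 ATF6aKO arrays, against -4.07 and -4.03 in ATF6bKO UT and -0.40 and 3.56 in ATF6bKO DSS. Of 11 measured genes of squamous epithelium, 10 had a negative difference, with a list median of -2.90. The test described below was passed by 2, Krt6a (-3.69) and Krt13 (0.99), where 3.67% of all genes were called higher and 6.99% lower. Without ATF6bKO DSS replicate 2 neither passed, and the other Krt13 probe gave -0.76. Of 13 skeletal muscle genes, such as Tnnt3, a fast-fibre troponin at 2.35 on that array and between -4.02 and -1.96 on the others, none passed the limma threshold with or without it, and none had an unadjusted p under 0.05 with it. Their part in other results was not tested.

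Each deleted gene was low in its own knockout on all arrays. Atf6 had levels of -3.23 and -3.04 in ATF6aKO UT and -3.08 and -3.23 in ATF6aKO DSS, against 0.74 and 0.89 in ATF6bKO UT and 1.14 and 1.22 in ATF6bKO DSS. All 4 ATF6aKO arrays lay below all 4 ATF6bKO arrays, and the difference was -4.14 (SE 0.115, limma adjusted p = 5.52e-05, n = 4 arrays each). The other Atf6 probe gave -3.54. The Atf6 probe stayed well above background on all 4 ATF6aKO arrays. Atf6b had levels of -0.01 and -0.07 in ATF6aKO UT and -0.14 and 0.08 in ATF6aKO DSS, against -7.64 and -6.48 in ATF6bKO UT and -4.14 and -7.61 in ATF6bKO DSS. Among the 4 ATF6bKO arrays it cleared background on 1, DSS replicate 1. The difference was 6.43 (SE 0.72, limma adjusted p = 0.012), and over the UT arrays, where the probe was not well above background in ATF6bKO, the level was at least 47.7-fold higher in ATF6aKO. The sources used here do not say where either probe lies relative to the deleted part of its gene.

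**Figure D1:**
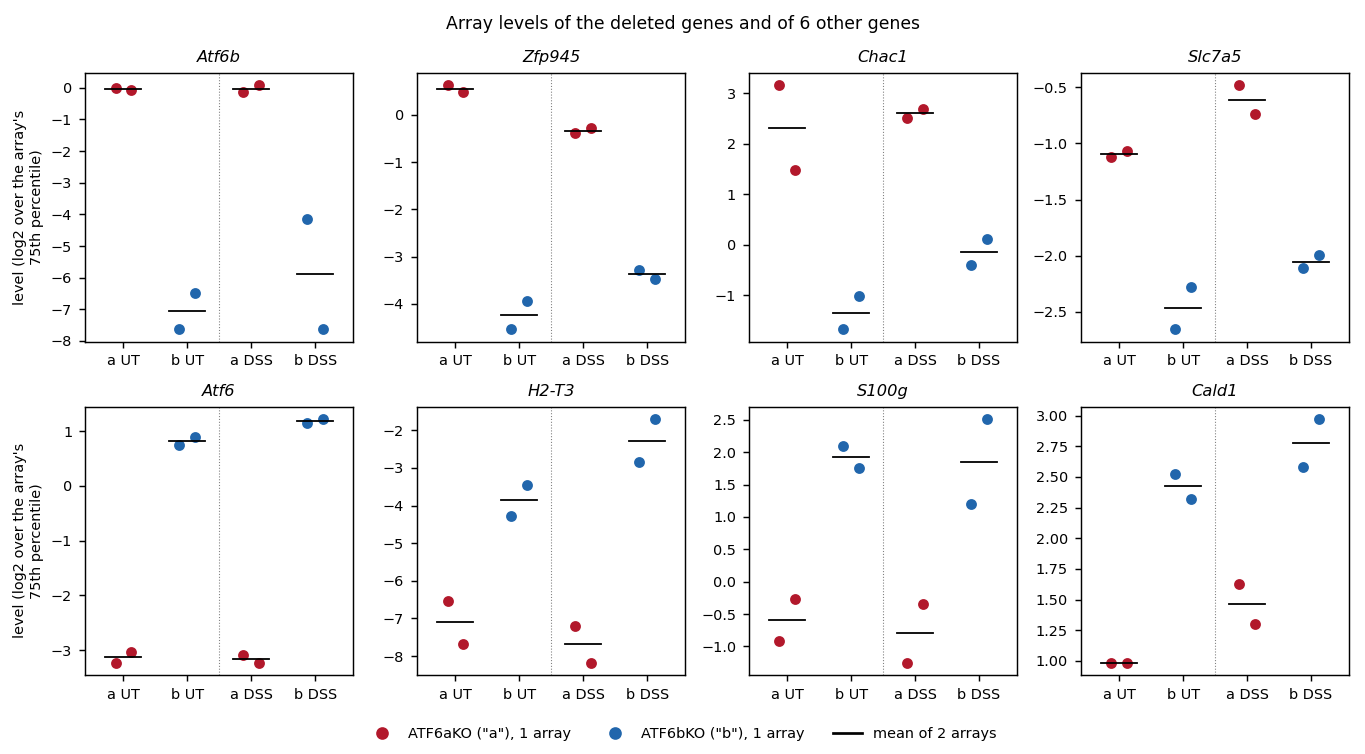
Levels on each array, in log2 units over the array's 75th percentile, for the 2 deleted genes and 6 others, by group (a is ATF6aKO, b is ATF6bKO). Points are single arrays and bars the mean of 2. In all 8 panels the genotypes do not overlap within either treatment. The 8 genes were picked among those past the test described below, and 28.8% of all genes do not overlap in this way. Atf6 lies at -3.23 to -3.04 in ATF6aKO.

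Over both treatments, with treatment as a term, 2347 of 22032 genes (10.7%) passed the limma test at an adjusted p under 0.05. Of these, 808 (3.67%) were higher and 1539 (6.99%) lower in ATF6aKO. A difference of at least 1 log2 unit was reached by 472 (2.14%), with 86 higher (0.39%) and 386 lower (1.75%). The split depended on the scaling of the arrays: 34.4% of the called genes were higher with the 75th percentile, 45.6% with quantile normalization, 64.6% with median scaling and 21.6% with normexp background correction. The median difference of all genes was -0.05, and it was -0.19 with normexp and 0.09 with median scaling, a shift of over 0.1 in each case, so differences of that size have no settled direction. All 2347 genes had the same sign in the UT and in the DSS arrays, and in 2339 the genotypes did not overlap within either treatment. Of all genes, 6347 (28.8%) met that second condition. In 3044 of all genes (13.8%), all 4 ATF6aKO arrays lay on 1 side of all 4 ATF6bKO arrays. The called genes were picked by a fit over these same arrays, so this agreement is not separate support. The same holds wherever a called gene is described as not overlapping, or as having all arrays of 1 genotype above the other. Over all genes the UT and DSS differences correlated at r = 0.364. How many genes had an unadjusted limma p under 0.05 in the main fit of both treatments was not counted. List counts at that cut therefore have no share of all genes beside them. With normexp 2539 genes were called higher and 9212 lower, and list counts under normexp stand against those numbers. The count of called genes was 257 without ATF6aKO UT replicate 1, 269 without ATF6aKO DSS replicate 1, 453 without ATF6bKO DSS replicate 2 and 501 without ATF6bKO DSS replicate 1. It was 738, 774 and 1073 without ATF6aKO DSS replicate 2, ATF6bKO UT replicate 2 and ATF6aKO UT replicate 2, and 3016 without ATF6bKO UT replicate 1.

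**Figure D2:**
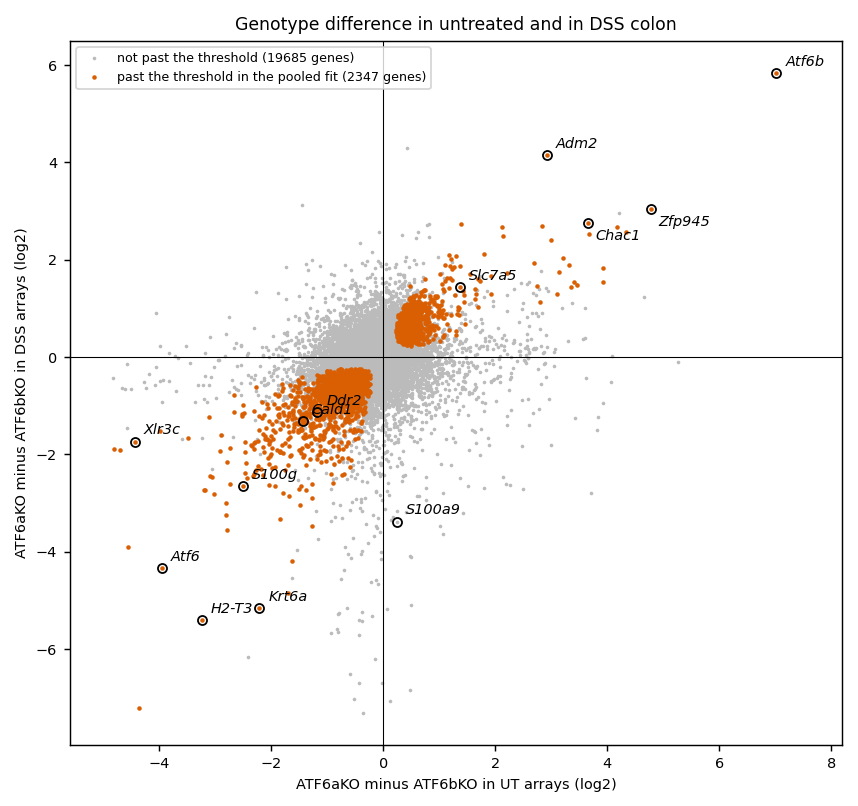
Difference between the genotypes (ATF6aKO minus ATF6bKO, log2) in the UT arrays, x axis, and in the DSS arrays, y axis, for 22032 genes; orange marks the 2347 past the threshold in the fit of both treatments. Atf6b lies at the upper right and Atf6 at the lower left, while S100a9 is near 0 in UT arrays and at -3.38 in DSS arrays.

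Of the genes with a symbol, 48 were higher and 122 lower in ATF6aKO by at least 1 log2 unit with non-overlapping genotypes and a signal well above background on all arrays of the higher genotype; the 15 with the largest difference each way are named here, the deleted genes among them. Among the 15 that were higher in ATF6aKO, 4 serve amino acid and stress metabolism. Chac1, a gamma-glutamylcyclotransferase that degrades glutathione, had levels of 3.15 and 1.47 in ATF6aKO UT and 2.50 and 2.69 in ATF6aKO DSS, against -1.68 and -1.02 in ATF6bKO UT and -0.40 and 0.10 in ATF6bKO DSS. It differed by 3.21 (SE 0.40, limma adjusted p = 0.0125), with all ATF6aKO arrays above all ATF6bKO arrays. The mitochondrial folate enzyme Aldh1l2 was higher by 2.70 (SE 0.37), the pseudokinase Trib3 by 1.97 (SE 0.29) and Psat1, the aminotransferase of serine synthesis, by 1.63 (SE 0.30). In all 4 genes ATF6aKO UT replicate 2 was the lowest of the ATF6aKO arrays.

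Several genes that were higher in ATF6aKO encode secreted or surface proteins. Adm2, which encodes the peptide hormone adrenomedullin 2, had levels of -3.99 and -5.97 in ATF6aKO UT and -3.85 and -3.65 in ATF6aKO DSS, against -8.08 to -7.73 in ATF6bKO, where it was not well above background on any array (at least 2.39-fold higher, limma adjusted p = 0.0128). A bound of this kind sets the mean of the brighter group against the lowest detectable signal. Igfals, the acid-labile subunit of the circulating insulin-like growth factor complex, was at least 2.10-fold higher, and Crisp3, a secreted cysteine-rich protein, at least 2.50-fold higher. The direction of these last genes depended on the background correction. With normexp Igfals differed by -0.08 and Crisp3 by -0.09, and neither passed. Tmem154, 1.61 higher in the main analysis, passed in the opposite direction with normexp (-0.33, limma adjusted p = 0.0117). Kremen2, a receptor for Dickkopf proteins that dampen Wnt signalling, was higher by 2.06 (SE 0.29) and Cpn1, the catalytic subunit of carboxypeptidase N, by 1.80 (SE 0.31). Zfp945, which encodes a zinc finger protein, had levels of 0.62 and 0.47 in ATF6aKO UT and -0.40 and -0.28 in ATF6aKO DSS, against -4.54 to -3.27 in ATF6bKO, a difference of 3.91 (SE 0.36, limma adjusted p = 0.00851). Its probes disagreed: the other two gave -1.72 and -2.20, and the mean of the probes gave -0.00127, so the higher level was seen at 1 probe of 3. Of the 15 genes, 7 kept their call when each array was left out in turn (Atf6b, Zfp945, Adm2, Chac1, Igfals, Trib3 and Mcpt1). The others lost it in 1 to 7 of the 8 omissions, the most being Tmem154, whose adjusted p without 1 array reached 0.113.

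The genes that were lower in ATF6aKO had mixed roles. H2-T3, which encodes the nonclassical MHC class I protein known as thymus leukemia antigen, was not well above background on any ATF6aKO array, with levels of -8.18 to -6.54. On the ATF6bKO arrays it had levels of -4.27 and -3.45 in UT and -2.86 and -1.70 in DSS, so that it was at least 7.90-fold lower in ATF6aKO (limma adjusted p = 0.0133). S100g, the calcium-binding protein calbindin-D9k, had levels of -0.91, -0.26, -1.25 and -0.34 on the ATF6aKO arrays, against 2.09, 1.75, 1.19 and 2.51 on the ATF6bKO arrays. It was lower by 2.58 log2 units (log2 -2.58, SE 0.34, limma adjusted p = 0.0134). The rule that named it required no overlap within either treatment. Xlr3c and Xlr4b, of an X-linked family first described in lymphocytes, differed by -3.08 (SE 0.69) and -2.58 (SE 0.43), and Xlr4b was lower at both of its probes. Their differences were -4.43 and -3.50 in UT arrays, against -1.74 and -1.67 in DSS arrays. The limma interaction test of UT against DSS differences passed for neither gene (adjusted p = 0.347 and 0.309). In ATF6aKO UT the Xlr3c levels were -2.69 and -5.01. Whether 1 probe reads several near-identical members of such families, the mast cell proteases and H2-T genes included, was not tested.

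The other genes of this kind included Krt6a, a keratin of stressed squamous epithelium, which differed by -3.69 (SE 0.88). Krt6a was highest in ATF6bKO DSS replicate 2 (0.52), and without that array the difference was -2.84 (limma adjusted p = 0.0696). Adgrf1, an adhesion G protein-coupled receptor, differed by -2.31, and the transcription factors Sox5 and Tbx15 by -2.29 and -2.24. Tbx15 had levels of -6.82 to -5.5 in ATF6aKO and -4.18 to -3.72 in ATF6bKO. Hormad1, a meiotic chromosome protein, differed by -2.13, the lysozyme-like gene Lyzl1 by -2.67 and the kallikrein gene Klk9 by -2.10. The remaining genes named by the rule were Tmem52b (-2.25), Ppp4r4 (-2.11), a regulator of protein phosphatase 4, and Kndc1 (-2.11), whose other probe gave 0.17. Sox5, Tbx15 and Kndc1 were well above background on 1 of the 4 ATF6aKO arrays, Lyzl1 on 2 and Krt6a on 3. Of the 15 lower genes, Atf6 and Tbx15 kept their call in every omission of an array, and the others lost it in 1 to 7 of 8, Krt6a and Xlr3c in 7.

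ATF4 and CHOP targets were the pathway list with the largest share of called genes. Of 26 measured members, 13 were higher in ATF6aKO and 0 lower, with a list median of 0.49 against -0.05 for all genes; over all genes 3.67% were called higher. No member was past even an unadjusted p under 0.05 in the lower direction. Besides Chac1, Trib3 and Psat1, Slc7a5, the large neutral amino acid transporter, had levels of -1.12 and -1.07 in ATF6aKO UT and -0.48 and -0.74 in ATF6aKO DSS, against -2.66 and -2.28 in ATF6bKO UT and -2.11 and -2.00 in ATF6bKO DSS. All ATF6aKO arrays lay above all ATF6bKO arrays, with a difference of 1.41 (SE 0.11, limma adjusted p = 0.00602). Phgdh, the first enzyme of serine synthesis, was higher by 1.01 (SE 0.17, adjusted p = 0.020). The other called members, named after their values were seen, were Mthfd2 (1.24), Slc7a11 (1.1), which imports cystine, the asparagine synthetase Asns (1.04), Nupr1 (0.85), Shmt2 (0.80), Psph (0.65), Slc3a2 (0.49), the partner chain of Slc7a5, and Atf5 (0.47). The transcripts of the list's own regulators did not pass: Atf4 differed by 0.41 (SE 0.21, adjusted p = 0.22) and Ddit3, which encodes CHOP, by -0.32 (SE 0.09, adjusted p = 0.06). Members far from the threshold included Atf3 (0.05), Ddit4 (0.14) and Sesn2 (-0.19). The count of 13 was 3 without any one of the 4 DSS arrays, 4 without ATF6aKO UT replicate 1 and 5 without ATF6bKO UT replicate 2. It was 13 without ATF6aKO UT replicate 2 and 13, with 1 lower, without ATF6bKO UT replicate 1. It was 12 with quantile normalization, 14 with median scaling and 19, with 1 lower, with normexp. Over all 22032 genes, 975, 1683 and 2539 were called higher under these settings, respectively. Chac1, Trib3 and Slc7a5 passed in every omission.

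ER chaperones and folding enzymes went both ways. Of 21 measured members, 5 were higher and 3 lower in ATF6aKO, with a list median of -0.01; over all genes 3.67% were called higher and 6.99% lower. Hspa5, which encodes the main ER chaperone BiP, had levels of 5.26 and 4.89 in ATF6aKO UT and 5.77 and 5.78 in ATF6aKO DSS, against 5.67 and 5.96 in ATF6bKO UT and 6.72 and 6.70 in ATF6bKO DSS. The genotypes did not overlap within a treatment, and Hspa5 differed by -0.84 (SE 0.12, limma adjusted p = 0.015). Hsp90b1, the ER member of the HSP90 family, differed by -0.74 (SE 0.15) and Creld2, an ER stress-inducible folding factor, by -0.88 (SE 0.18). These last genes, like P4hb and Fkbp2, were named after their values were seen. On the other side, Calr, the calcium-binding lectin chaperone calreticulin, had levels of 5.35 and 4.91 in ATF6aKO UT and 5.62 and 5.74 in ATF6aKO DSS, against 4.0 and 4.20 in ATF6bKO UT and 4.74 and 4.93 in ATF6bKO DSS. Calr was higher by 0.94 (SE 0.13, adjusted p = 0.0144). Dnajb9, a DnaJ cofactor of BiP, was higher by 0.79 (SE 0.08, adjusted p = 0.012) with no overlap, and the protein disulfide isomerases Txndc5 and P4hb by 0.82 and 0.72 and the prolyl isomerase Fkbp2 by 0.40. Members between these, such as Pdia4 (0.14), Canx (-0.08), Hyou1 (-0.37) and Sdf2l1 (-0.43), did not pass. The counts were 2 higher and 1 lower without ATF6bKO DSS replicate 1 or 2, 2 and 0 without ATF6aKO DSS replicate 1, 2 and 2 without ATF6aKO UT replicate 1, and 3 and 1 without ATF6aKO DSS replicate 2 or ATF6bKO UT replicate 2. Without ATF6aKO UT replicate 2 they were 4 and 1, and without ATF6bKO UT replicate 1 they were 4 and 3; Calr and Dnajb9 kept their call throughout, and Hspa5 lost it in 1 omission.

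**Figure D3:**
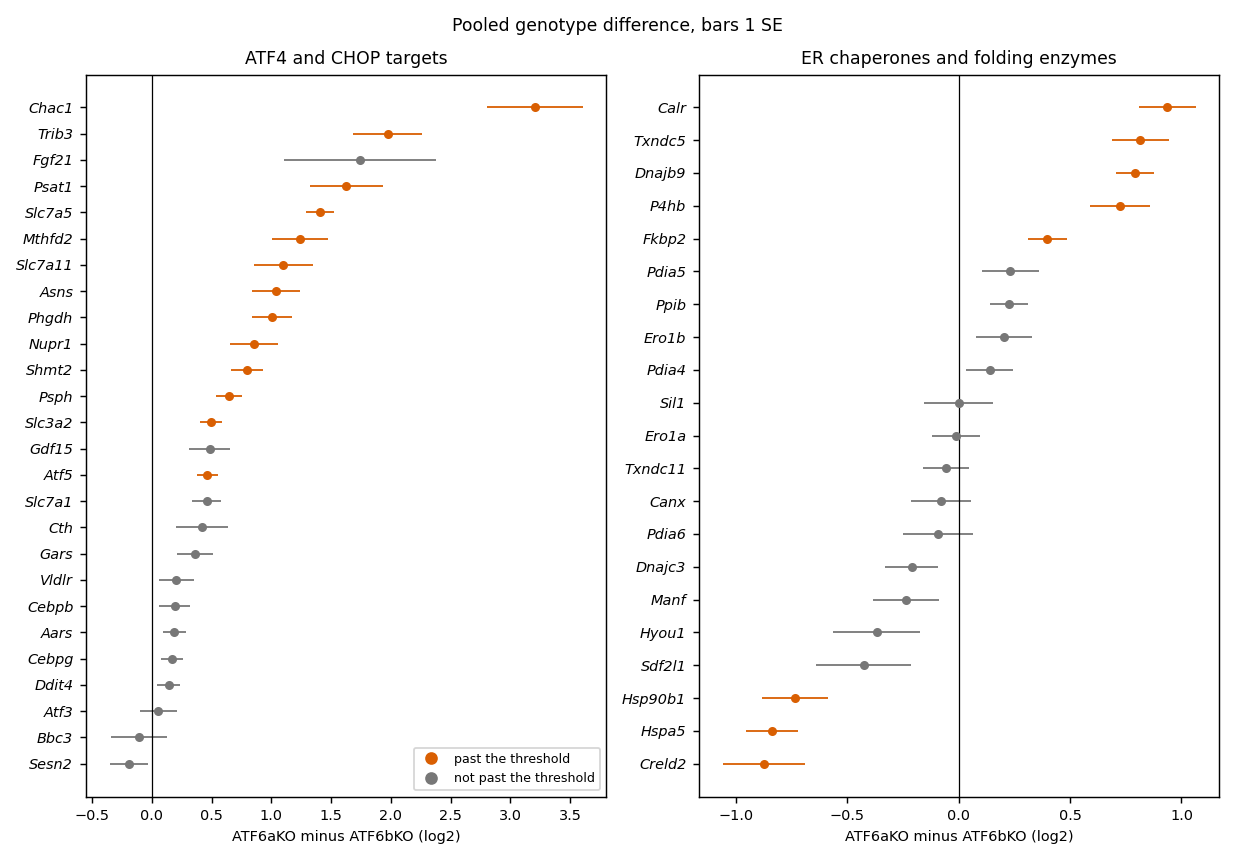
Difference between the genotypes over both treatments (ATF6aKO minus ATF6bKO, log2) for the measured members of 2 lists; bars are 1 SE and orange marks an adjusted p under 0.05. All 13 called ATF4 and CHOP targets lie right of 0, with Chac1 at 3.21, while called ER chaperones lie on both sides, from Creld2 at -0.88 to Calr at 0.94.

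Promoters are shown for the called chaperone genes that hold an ER stress element, picked for that, to set their elements side by side; P4hb, Dnajb9, Fkbp2 and Txndc5, which were higher, had no match and are not shown. Each sequence runs 5′ to 3′ along the gene's strand, from 250 bases before the RefSeq start to 50 after it, on build GRCm38.p6, and capitals mark the element, the letters CCAAT and CCACG with 9 bases of any kind between them, or its reverse complement, which opens with CGTGG and ends with ATTGG. The windows are chr2:34771840-34772139 on the plus strand, chr10:86705395-86705694 on the minus strand, chr15:88819396-88819695 on the plus strand and chr8:84846882-84847181 on the minus strand.
Hspa5: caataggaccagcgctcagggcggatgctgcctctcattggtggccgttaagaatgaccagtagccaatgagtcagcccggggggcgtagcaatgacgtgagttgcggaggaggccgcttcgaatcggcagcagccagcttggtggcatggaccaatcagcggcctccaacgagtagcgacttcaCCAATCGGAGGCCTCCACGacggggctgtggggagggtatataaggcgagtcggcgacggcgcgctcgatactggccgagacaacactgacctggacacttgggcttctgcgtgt
Hsp90b1: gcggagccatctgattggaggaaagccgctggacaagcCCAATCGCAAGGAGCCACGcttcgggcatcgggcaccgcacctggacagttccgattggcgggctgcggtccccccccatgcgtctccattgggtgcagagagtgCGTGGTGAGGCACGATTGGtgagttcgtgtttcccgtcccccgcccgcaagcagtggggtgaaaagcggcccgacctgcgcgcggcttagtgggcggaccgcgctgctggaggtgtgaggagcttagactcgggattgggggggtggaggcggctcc
Creld2: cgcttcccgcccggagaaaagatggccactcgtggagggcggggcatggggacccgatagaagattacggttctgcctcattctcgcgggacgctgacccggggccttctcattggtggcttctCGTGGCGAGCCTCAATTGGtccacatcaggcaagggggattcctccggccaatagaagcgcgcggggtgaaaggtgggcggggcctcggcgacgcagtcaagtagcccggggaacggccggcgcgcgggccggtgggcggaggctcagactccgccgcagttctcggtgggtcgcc
Calr: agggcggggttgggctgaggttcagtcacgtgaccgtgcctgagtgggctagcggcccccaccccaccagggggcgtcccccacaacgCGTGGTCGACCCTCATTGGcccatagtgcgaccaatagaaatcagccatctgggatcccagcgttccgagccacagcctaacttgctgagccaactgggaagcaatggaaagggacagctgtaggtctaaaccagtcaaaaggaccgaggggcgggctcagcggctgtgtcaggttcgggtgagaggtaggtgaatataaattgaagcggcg
Hsp90b1 holds 2 such matches, 1 in each orientation, and the other genes 1 each, with Hspa5 matching in the forward orientation and Creld2 and Calr in the reverse. The match was found in 39 of 32851 mouse promoter windows of this length (0.119%), and in at least 1 window of 37 of 27025 genes (0.137%). Of the 18 chaperone genes with a window, 8 held it: all 3 that were lower in ATF6aKO, 1 of the 5 that were higher (Calr), and 4 of the 10 that did not pass. A match is a description of letters and not a measured binding site.

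For the ATF4 list the letters searched were TGATGNAA on both strands, a core shared by C/EBP-ATF response elements, in windows of the same length. They stood in 1304 of 32851 windows (3.97%), and in at least 1 window of 1219 of 27025 genes (4.51%). Counted per gene, they stood in 10 of the 24 list genes with a window. These were 5 of the 12 that were higher and 5 of the 12 that did not pass. The promoters of the list's 2 genes with the largest called difference are printed, with the match in capitals, from chr2:119350992-119351291 on the plus strand and chr2:152344011-152344310 on the minus strand.
Chac1: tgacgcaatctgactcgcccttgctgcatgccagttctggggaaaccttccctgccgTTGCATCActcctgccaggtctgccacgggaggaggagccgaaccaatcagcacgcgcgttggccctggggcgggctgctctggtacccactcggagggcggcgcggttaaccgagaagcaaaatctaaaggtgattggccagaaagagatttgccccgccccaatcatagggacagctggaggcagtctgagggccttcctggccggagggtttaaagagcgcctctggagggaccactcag
Trib3: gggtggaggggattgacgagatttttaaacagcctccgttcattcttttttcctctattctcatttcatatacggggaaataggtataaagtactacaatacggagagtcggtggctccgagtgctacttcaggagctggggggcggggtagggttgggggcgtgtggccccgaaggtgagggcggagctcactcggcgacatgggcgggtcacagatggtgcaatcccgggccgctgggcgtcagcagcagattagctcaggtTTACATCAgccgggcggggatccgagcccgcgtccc
Both matches read in the reverse orientation, from base 58 of the Chac1 window and from base 265 of the Trib3 window, counted from 1 at the 5′ end.

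Other parts of the secretory machinery differed at single genes. Among 23 measured sensors and factors of the unfolded protein response, the deleted genes included, 3 were higher and 3 lower, where 3.67% of all genes were called higher and 6.99% lower. The counts were 1 and 1 without ATF6bKO DSS replicate 2 and 1 to 3 and 1 to 4 over all omissions. Xbp1, the transcription factor of the IRE1 branch, was higher by 0.49 (SE 0.10, limma adjusted p = 0.032) and Nfyb, a subunit of NF-Y, was lower (log2 -0.47, SE 0.09, adjusted p = 0.025). Creb3l1, a related membrane-bound factor, was higher by 0.71 and Crebzf, a leucine zipper protein, lower (log2 -0.50), and the remaining called members were the deleted genes. The other Nfyb probe gave 0.16. At the brighter probe Nfyb had levels of 2.12 to 2.41 on the ATF6aKO arrays and 2.71 to 2.88 on the ATF6bKO arrays. Ern1 (-0.49), Ern2 (0.24) and Eif2ak3 (0.17), which encode the sensors IRE1a, IRE1b and PERK, did not pass. In ER-associated degradation, which clears misfolded proteins, 1 of 21 genes passed: Edem2, a mannosidase-like protein that marks glycoproteins for disposal, had levels of -0.87 to -0.58 in ATF6aKO and -1.64 to -1.40 in ATF6bKO and was higher by 0.87 (SE 0.10, adjusted p = 0.0121), also in every omission. In the translocon and secretory transport list 3 of 26 were higher and 0 lower, Ssr2 (0.76), Srp68 (0.54) and Sec24d (0.47), and the count was 0 to 3 over the omissions.

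In the UT arrays alone, with 4 arrays in the fit, 0 of 22032 genes (0.0%) passed the limma test, and 4138 (18.8%) had an unadjusted p under 0.05. The lowest adjusted p was 0.116, for Atf6, whose difference was -3.95. So no gene could be named for UT colon from its 4 arrays, although Atf6 itself was far apart there. When the UT difference was taken from the fit of all 8 arrays, where the groups share 1 estimate of the spread, 319 genes (1.45%) passed, 52 higher and 267 lower. Genes past the threshold for UT colon in that fit included Atf6 (adjusted p = 0.00137), Zfp945 (4.79, adjusted p = 0.00323), Atf6b (adjusted p = 0.0456), Chac1 (3.66, adjusted p = 0.0455) and Slc7a5 (1.37, adjusted p = 0.0369). Of the 30 genes named for the pooled difference, 7 passed. The ATF4 list had 2 higher and 0 lower members there, and the chaperone list 1 higher, Dnajb9 (0.78, adjusted p = 0.0484), and 0 lower. In UT arrays Hspa5 differed by -0.74, Hsp90b1 by -0.50 and Creld2 by -0.50, and in DSS arrays by -0.93, -0.97 and -1.26.

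In the DSS arrays alone 10 genes passed (0.0454%), with 6514 (29.6%) at an unadjusted p under 0.05, and 5 of the 10 had a symbol: Atf6, S100a9, Tdo2, Adm2 and Zfp945. Tdo2, the tryptophan-degrading dioxygenase, had levels of -7.92 and -7.84 in ATF6aKO DSS, against -4.79 and -4.95 in ATF6bKO DSS. It was not well above background on any ATF6aKO array, so it was at least 2.29-fold lower in ATF6aKO DSS; it was chosen after its values were seen. The count was 0 without any one array of the DSS groups except ATF6bKO DSS replicate 1, without which it was 131. With the spread of all 8 arrays 552 genes (2.51%) passed for DSS colon, and 94 passed for both treatments, 89 of them with the same sign. The UT and DSS differences share no array, but they share the slides, and over genes they correlated at r = 0.364. A difference between the UT and DSS contrasts passed in 8 genes (0.0363%), and 2903 (13.2%) had an unadjusted p under 0.05; the 1 with a symbol was S100a9.

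Among the marker lists of cell types, those of mast cells and of enteroendocrine cells had the most members called higher in ATF6aKO, 5 each. In bulk tissue, a different number of cells of a type and a different amount of RNA per cell cannot be told apart. Of 13 measured genes of mast cells and eosinophils, 5 were higher and 0 lower, with a list median of 0.57; over all genes 3.67% were called higher and the median was -0.05. Mcpt1, a chymase of mucosal mast cells, had levels of 3.26 and 2.72 in ATF6aKO UT and 4.17 and 4.25 in ATF6aKO DSS, against 1.55 and 1.05 in ATF6bKO UT and 2.27 and 2.95 in ATF6bKO DSS. The genotypes did not overlap within a treatment, and the difference was 1.65 (SE 0.20, limma adjusted p = 0.0125). The proteases Mcpt2 (1.65) and Mcpt4 (1.39) and Fcer1a (0.98), a chain of the IgE receptor, were higher as well, and so was Cpa3 (0.89), named after its values were seen. Mcpt9, a mast cell protease outside the list and 1 of the 15 genes named above, was higher by 1.63. Cma1 (-0.09), Tpsb2 (0.32) and the eosinophil genes Prg2 (0.07) and Ccr3 (-0.08) did not pass. The count for the list was 2 without ATF6aKO DSS replicate 1 or ATF6aKO UT replicate 1, 3 without ATF6aKO DSS replicate 2, ATF6bKO DSS replicate 1 or ATF6bKO UT replicate 2, and 4 or 5 without the others. With normexp 4 members were higher and 3 lower, with a median of -0.16.

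Of 17 enteroendocrine genes, 5 were higher and 0 lower, with a list median of 0.42, against the same 3.67% and -0.05 over all genes. Tph1, the enzyme that starts serotonin synthesis in enterochromaffin cells, had levels of -0.36 and -0.44 in ATF6aKO UT and 0.61 and 0.40 in ATF6aKO DSS, against -1.08 and -1.43 in ATF6bKO UT and -0.67 and -0.71 in ATF6bKO DSS. All ATF6aKO arrays were above all ATF6bKO arrays, with a difference of 1.02 (SE 0.12, limma adjusted p = 0.0123). Gcg, which encodes proglucagon, was higher by 0.79 (SE 0.10, adjusted p = 0.0125), and the granins Chga and Chgb by 0.67 and 0.57. Sst, somatostatin, was higher by 0.53 and was named after its values were seen. The peptide genes Pyy (0.23), Insl5 (0.42) and Tac1 (-0.15) did not pass. The count was 3 without ATF6aKO DSS replicate 2, 5 without ATF6bKO UT replicate 1 and 2 without any one of the other arrays; Tph1 and Gcg passed in every omission. With normexp 7 members were higher and 6 lower, with a median of 0.01.

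**Figure D4:**
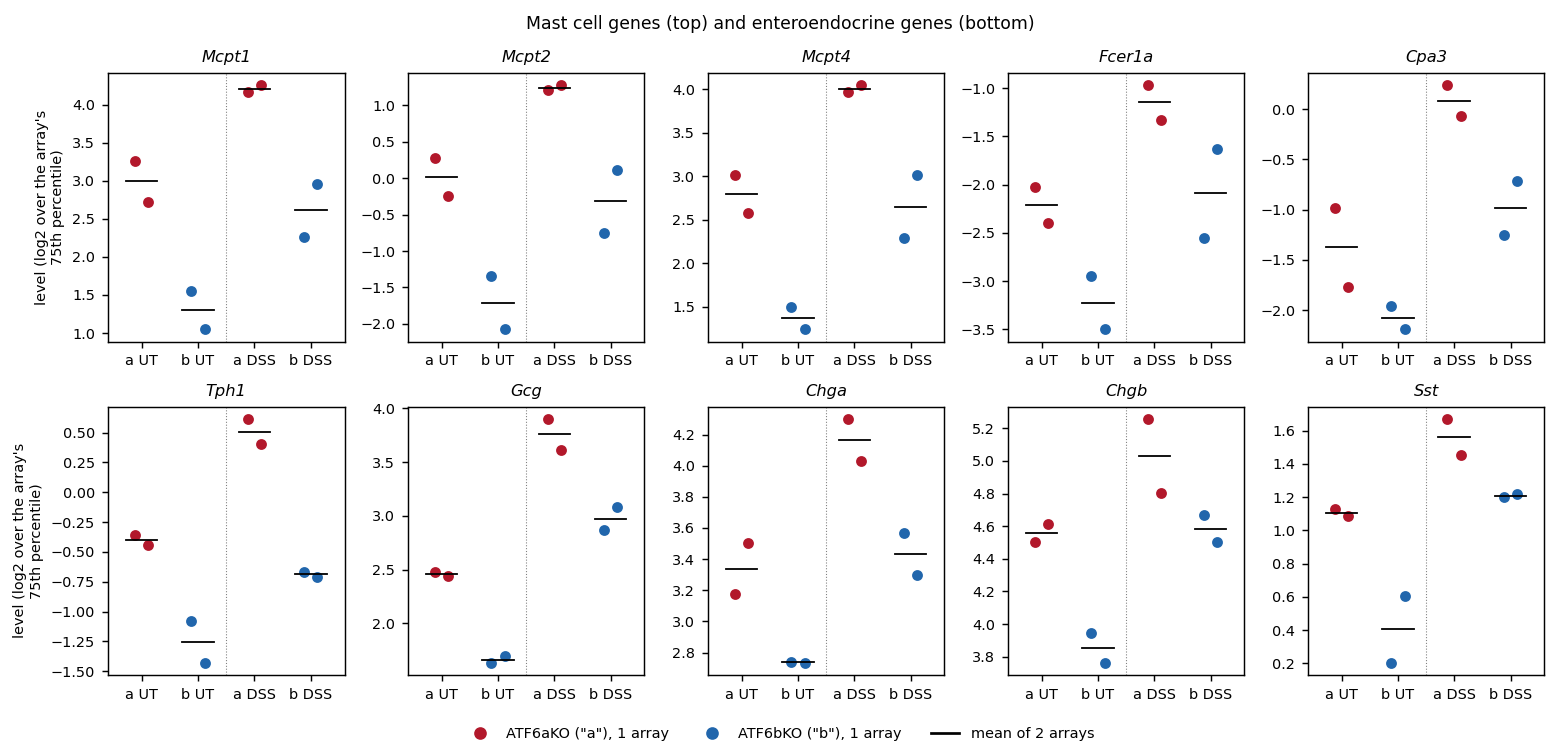
Levels on each array, in log2 units over the array's 75th percentile, for 5 mast cell genes (top) and 5 enteroendocrine genes (bottom), by group (a is ATF6aKO, b is ATF6bKO). Points are single arrays and bars the mean of 2. The genes shown are the 5 called members of each list, and members that did not pass are not drawn. In each panel both ATF6aKO arrays of a treatment lie above both ATF6bKO arrays, which follows largely from that choice. Of all genes 11.3% lie apart in this way. Mcpt1 is at 2.72 and above in ATF6aKO and at 2.95 and below in ATF6bKO.

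Epithelial, stromal and vascular markers mostly did not pass. Over all genes 3.67% were called higher and 6.99% lower. Of 22 genes of absorptive colonocytes 0 passed the limma test, with 5 higher and 1 lower at an unadjusted p under 0.05; Car1, a carbonic anhydrase of colonocytes, differed by 1.51 (SE 0.42, adjusted p = 0.062), with 0.59 in UT and 2.44 in DSS arrays. With median scaling 3 colonocyte genes passed and with normexp 7, all higher. Over all 22032 genes, 1683 were called higher with median scaling and 2539 with normexp. In goblet cells, Clca1, a secreted protease of mucus, was lower (log2 -0.60, SE 0.12, adjusted p = 0.030) and Creb3l1 higher (0.71), of 16 measured; neither passed without ATF6bKO DSS replicate 2 and the counts were 0 or 1 higher and 0 to 3 lower over the omissions. Of 14 smooth muscle genes 1 passed. Cald1, the actin-binding protein caldesmon, had levels of 0.98, 0.98, 1.63 and 1.30 on the ATF6aKO arrays, against 2.53, 2.32, 2.58 and 2.97 on the ATF6bKO arrays. It was lower by 1.38 log2 units (log2 -1.38, SE 0.13, adjusted p = 0.00851), also in every omission. At the other Cald1 probe the difference was -0.5. Among fibroblast genes Dcn, the matrix proteoglycan decorin, was lower (log2 -0.42, SE 0.10), 1 of 18, and 0 in each omission of an array. Upk1b (1.28) and Gpm6a (0.81) were higher, 2 of 8 genes of mesothelium, the lining of the outer gut wall, but Upk1b differed by -0.08 with normexp; the count was 0 without ATF6bKO DSS replicate 2 and 0 to 3 over the omissions. In the endothelium list Flt4, a receptor of lymphatic vessels, was higher (0.90; -0.08 with normexp) and Egfl7 lower (log2 -0.36), of 14; neither passed without ATF6bKO DSS replicate 2, and Egfl7 passed in no omission. Of 12 posterior Hox genes, which mark position along the gut, 3 were lower: Hoxa13 (log2 -0.97, SE 0.15, adjusted p = 0.0166), Hoxa9 (log2 -0.57) and Hoxd9 (log2 -0.49). The other probes of Hoxa13 and Hoxd9 went the opposite way, at 0.22 and 0.34. The count was 0 without ATF6aKO DSS replicate 1 or ATF6aKO UT replicate 1, 1 or 2 without any one of the others, and 1 when probes were averaged per gene. At its brighter probe Hoxa13 had levels of -1.30 to -0.79 on the ATF6aKO arrays and -0.16 to 0.23 on the ATF6bKO arrays. Whether the segment of colon sampled moved with genotype was not tested. Single genes passed in the lists of B and plasma cells (Xbp1, 1 of 16), monocytes and macrophages (the chemokine receptor Ccr2, log2 -0.76, 1 of 19) and antimicrobial epithelial genes (Lypd8, which keeps flagellated bacteria from the epithelium, log2 -0.55, 1 of 16; 0.06 at its other probe). None of these passed without ATF6bKO DSS replicate 2.

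Inflammatory and interferon genes were lower in ATF6aKO at few genes, with the list medians apart in the DSS arrays. Of 24 interferon-stimulated genes 4 were lower and 0 higher, where 6.99% of all genes were called lower; the list median was -0.23 in UT arrays and -1.55 in DSS arrays. Ifi44 had levels of -4.28 and -4.61 in ATF6aKO UT and -3.42 and -3.20 in ATF6aKO DSS, against -3.91 and -2.77 in ATF6bKO UT and -1.02 and -1.30 in ATF6bKO DSS. It was lower by 1.63 log2 units (log2 -1.63, SE 0.31, limma adjusted p = 0.0284), and Ifit2, Irgm1 and Stat2 differed by -1.36, -1.35 and -0.76. The count was 10 without ATF6bKO UT replicate 1, 1 without ATF6bKO UT replicate 2, and 0 without any one of the other arrays. It was 2 with median scaling and 17 with normexp. Over all 22032 genes, 923 were called lower with median scaling and 9212 with normexp. In antigen presentation 2 of 15 were lower, Psmb8, a subunit of the immunoproteasome (log2 -1.06), and Tap2, the peptide transporter (log2 -0.96), with counts of 0 to 3 over the omissions; both genes lie near Atf6b on chromosome 17. Of 19 genes of acute inflammation 3 were lower: the neutrophil-attracting chemokine Cxcl1 (log2 -1.57, SE 0.28, adjusted p = 0.0229), Ptgs2, the inducible cyclooxygenase (log2 -0.77), and Il11 (log2 -0.84), with counts of 0 to 4 over the omissions. Of 15 neutrophil genes 0 passed the limma test, with 0 higher and 2 lower at an unadjusted p under 0.05, and the list median was 0.27 in UT arrays and -1.5 in DSS arrays. Of the genes of these lists only S100a9 passed the test of the difference between the UT and DSS contrasts.

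Among metabolic lists, cholesterol synthesis had 5 of 21 genes higher and 0 lower, with a list median of 0.32, where 3.67% of all genes were called higher. Cyp51, the lanosterol demethylase, had levels of 0.46 and 0.08 in ATF6aKO UT and 0.40 and 0.10 in ATF6aKO DSS, against -0.49, -0.76, -0.41 and -0.78 on the ATF6bKO arrays. All ATF6aKO arrays were above all ATF6bKO arrays, with a difference of 0.87 (SE 0.14, limma adjusted p = 0.0198). Fdft1 (0.71; -0.05 at its other probe), Sqle (0.59) and Lss (0.85), which act between farnesyl diphosphate and lanosterol, and Fdps (0.87), named after its values were seen, were higher as well, while the regulators Srebf2 (0.28) and Srebf1 (-0.02) did not pass. The count was 2 without ATF6bKO UT replicate 1 and 0 or 1 without any one of the other arrays. It was 3 with quantile normalization, 7 with median scaling and 11 with normexp. Over all 22032 genes, 975, 1683 and 2539 were called higher under these settings, respectively. Against the same 3.67% called higher and 6.99% called lower over all genes, 3 of 23 genes of oxidative phosphorylation were higher, namely Ndufv2 (0.55), Sdha (0.39) and Sdhb (0.49), and 2 lower, Uqcrb (log2 -0.59) and Cox7b (log2 -0.37), the last named after its values were seen. Leaving out ATF6bKO UT replicate 1 gave 3 and 1, leaving out ATF6aKO DSS replicate 2 gave 0 and 1, and each other omission gave 0 and 0. Of 23 ribosomal protein genes Rpl3 was higher (0.65) and Rplp1 and Rps18 lower (log2 -0.37 and -0.32), with 0.07 at the other Rps18 probe. The ribosomal counts were 4 higher and 0 lower without ATF6bKO UT replicate 1 and 0 and 0 in each other omission. Among clock genes, Per2 (1.03, SE 0.20, adjusted p = 0.0272) and Cry2 (0.60) were higher, but the other Per2 probe gave -0.25, and neither gene passed without ATF6bKO DSS replicate 2. At its brighter probe Per2 had levels of -0.17 and -0.52 in ATF6aKO UT and -2.36 and -1.77 in ATF6aKO DSS, against -1.17 and -0.94 in ATF6bKO UT and -3.44 and -3.41 in ATF6bKO DSS. The hour at which each mouse was sampled is not given in the labels. The Y-linked gene Eif2s3y was lower (log2 -0.71, SE 0.13, adjusted p = 0.0245), 1 of 4 such genes and in 1 of the 8 omissions, while Ddx3y (-0.34), Kdm5d (-0.16) and Uty (0.03) did not pass. Of all 41 lists, 16 with 241 measured members had no member past the limma threshold, among them cell cycle, xenobiotic metabolism, heat shock and tuft cells. At an unadjusted limma p under 0.05, 22 of those members were higher and 12 lower. The share of all genes at that cut was not counted.

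Genes near the deleted loci were examined in gene order. Whether DNA that flanks the deleted genes differs between the genotypes was not tested. Over all genes with a symbol and a chromosome, 1434 of 13856 passed (10.3%). Among the nearest 10 tested genes on each side of Atf6, on chromosome 1, 7 of 20 passed (35%), with 9 of 50 among the nearest 25 on each side (18%) and 11 of 100 among the nearest 50 (11%). Around Atf6b, on chromosome 17, the counts were 3 of 20 (15%), 8 of 50 (16%) and 13 of 100 (13%). Ddr2, a collagen receptor and the fifth gene from Atf6, had levels of 0.93, 0.84, 1.5 and 1.25 on the ATF6aKO arrays, against 2.11, 2.02, 2.47 and 2.54 on the ATF6bKO arrays. The genotypes did not overlap, and the difference was -1.16 (SE 0.09, limma adjusted p = 0.00594), kept in every omission. At the other Ddr2 probe the difference was -0.25. The nuclear receptor Nr1i3 differed by -2.00, the adhesion protein Nectin4 by -1.82, the kinase Uhmk1 by -0.91 and the regulator of G protein signalling Rgs5 by 0.92. F5, coagulation factor V, differed by 1.0, but passed in the opposite direction with normexp (-0.42, limma adjusted p = 0.00345). Near Atf6b, Cyp21a1, the steroid 21-hydroxylase that lies 3 genes away, had levels of -5.53 to -4.57 in ATF6aKO and -3.69 to -3.53 in ATF6bKO, a difference of -1.48 (SE 0.17, adjusted p = 0.012). BC051142 differed by -1.20, Lsm2 by 0.76 and Vps52 by 0.75. The count of 7 near Atf6 was 1 without ATF6aKO UT replicate 1, 2 without ATF6aKO DSS replicate 1, 3 without ATF6aKO DSS replicate 2 or ATF6bKO DSS replicate 2, 4 without ATF6bKO DSS replicate 1 or ATF6bKO UT replicate 2, and 5 or 6 without the others.

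**Figure D5:**
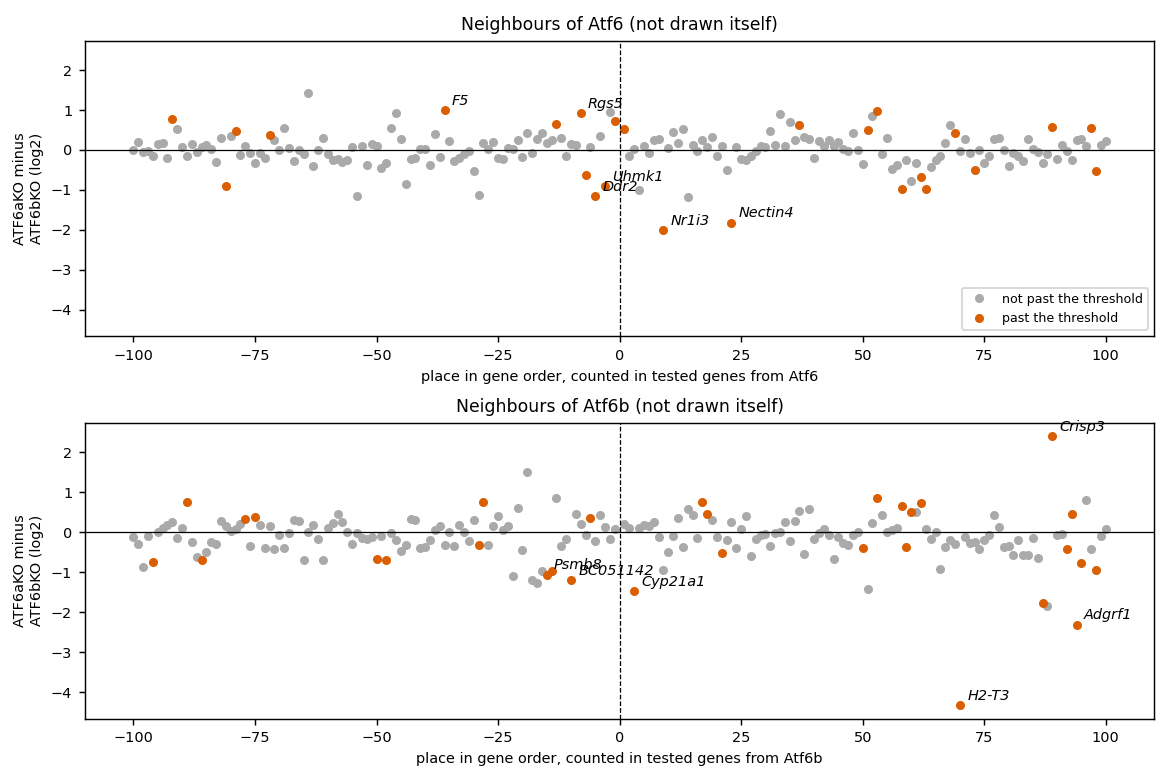
Difference between the genotypes over both treatments (ATF6aKO minus ATF6bKO, log2) for the 100 nearest tested genes on each side of Atf6 (top) and Atf6b (bottom), by place in gene order; the deleted genes are at 0 and not drawn, and orange marks an adjusted p under 0.05. Near Atf6 the largest differences are Nr1i3 at -2.00 and Nectin4 at -1.82, and near Atf6b H2-T3 lies at -4.33, 70 genes away.

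Chromosome 17 as a whole held 98 called genes of 673 (14.6%), the highest share of the autosomes, against 77 of 811 (9.49%) on chromosome 1 and 7.60% to 12.4% on the other autosomes. Of the 30 genes named for the pooled difference 7 lie on chromosome 17, which holds 673 of the 13856 tested genes with a chromosome. They are Atf6b, Zfp945, Igfals, Crisp3, Kremen2, H2-T3 and Adgrf1. Atf6b is the deleted gene of ATF6bKO, Zfp945 was higher at 1 probe of 3, and Igfals and Crisp3 changed direction with normexp. The called genes there were not closest to Atf6b. In blocks of 50 genes, the block that starts 250 genes before Atf6b, which holds Zfp945 and Kremen2, had 20 called (40%). The block that starts 50 genes after it, which holds H2-T3, Crisp3 and Adgrf1, had 14 (28%). The block just before Atf6b had 8, and the block that starts at Atf6b had 5, Atf6b itself among them. The share on chromosome 17 was above that of all genes with a symbol under each of the 18 settings run, the one used throughout included, at 2.38% against 1.05% without ATF6aKO DSS replicate 1 and 51.4% against 44.7% with normexp.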

How the data were processed

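Total colon RNA, labelled with Cy3, was measured on 1-colour Agilent arrays. The authors deposited scanner files whose processed signal is an intensity per spot, with background and spatial trend subtracted by Agilent Feature Extraction 10.7.1.1, per the submitters' processing notes and the file headers. They also deposited a value table of normalized log2 values, per the file headers, used only as an alternative; its ATF6aKO columns held the other replicate of the same group (r above 0.999 over 41126 probes). Array number and signal over background limit the precision.

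From the intensities, control and outlier spots were left out, spots of a probe were averaged, and log2 of the array's 75th percentile was subtracted. A probe was kept if well above background on both arrays of at least 1 of the 4 groups (28851 of 41174), and the brightest probe stood for a gene. RefSeq names (GRCm38.p6) covered 24844 probes (60.3%) and 13856 of 22032 tested genes (62.9%). limma 3.58.1 in R 4.3.3 fitted genotype plus treatment on 8 arrays; UT and DSS arrays were also fitted alone, and the difference between them as an interaction over 4 group means. P-values were Benjamini-Hochberg adjusted over all 22032 genes, with a threshold of 0.05. The steps were tested on simulated data.

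The deleted genes were always named. Other names were the 15 genes each way with the largest difference among those past the threshold, at least 1 log2 unit apart, not overlapping within either treatment and well above background on all arrays of the higher genotype; up to 4 members of each list with the smallest p; and up to 6 called neighbours of each deleted gene with the largest difference. The same rule for UT arrays alone named none. The groups, gene lists and rules were chosen with earlier results of these data known. Alternatives were normexp background correction (offset 50, on median signals, since no mean signal was in the files used), quantile normalization, median scaling, no or a stricter filter, the mean of a gene's probes, the value table, a replicate block, 4 group means and leaving out each array. The result of 1 list gene is not reported here.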

Additional observations from a re-analysis of the deposited data

Results flagged for a closer look

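S100a9, a calcium-binding protein of neutrophils, had genotype differences in the UT and DSS arrays that themselves differed. Its levels were -3.16 and -3.49 in ATF6aKO UT and 0.95 and 0.69 in ATF6aKO DSS, against -3.70 and -3.45 in ATF6bKO UT and 4.22 and 4.19 in ATF6bKO DSS. The genotypes overlapped in UT arrays (difference 0.25) and lay apart in DSS arrays (-3.38). The DSS difference minus the UT difference was -3.63 (limma adjusted p = 0.0325), and it was the 1 gene with a symbol among 8 genes past the threshold, 3 with a positive and 5 with a negative term. With the replicate number as a block the count was 0. Other neutrophil markers moved beside it without passing: the list of 15 had a median difference of 0.27 in UT arrays and -1.5 in DSS arrays, and their part in the result was not tested.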

How the results depend on the processing

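The count of 2347 called genes was 11751 with normexp, 1260 with no filter and 1301 with the replicate number as a block; leaving out 1 array gave 257 to 3016, with fewer samples in the fit in each case. Other settings gave 2136 to 3048. In UT arrays alone the count of 0 was 6800 with normexp, 72 with median scaling and 319 with the spread of all 8 arrays, and 0 under the other alternatives, each array left out included. In DSS arrays alone the count of 10 was 6522 with normexp, 33 with quantile normalization, 121 with median scaling, 0 with no filter, 635 with the stricter filter, 107 with the value table, 1 with the replicate block and 552 with the spread of all 8 arrays, and 0 to 131 with 1 array left out. The interaction count of 8 was 0 with the replicate block, 24 with normexp and 0 to 88 with 1 array left out, an alternative chosen after seeing the data, as were the others for this count. Zfp945 differed by -0.00127 with the mean of its probes. With normexp, Igfals differed by -0.0842, Crisp3 by -0.0934, Tmem154 by -0.329, Flt4 by -0.0783, Upk1b by -0.0769 and F5 by -0.421. Of these, only Tmem154 and F5 passed the threshold with normexp, each in the reversed direction. The cause was not tested.

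Of 128 named genes, 126 kept direction and side of the threshold with the value table, 118 with 4 group means, 113 with quantile normalization, 110 with median scaling, 104 with the replicate block, 96 with normexp and 92 with no filter. With 1 array left out the number was 57 without ATF6aKO DSS replicate 1, 58 without ATF6aKO UT replicate 1 and 70 to 109 without any one of the others. Replicate numbers are shared between genotypes, but the deviations of same-numbered samples correlated at -0.05 in UT and 0.08 in DSS arrays over 22032 genes, so the numbers were not taken as pairs. Genes near background, where 72 of the called lower genes were not well above background on any ATF6aKO array and 26 of the called higher genes on any ATF6bKO array, have only bounds on their difference.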
